A study of Homo sapiens with 12 samples.

Results

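The 10 genes described here carry glucose from the plasma membrane to lactate and to the gate of the mitochondrion: SLC2A1, HK2, PFKP, ALDOA, GAPDH, PGK1, ENO1, PKM, LDHA and PDK1. They were chosen by symbol, and each matched 1 row among the 46350 named genes of the count files. All 10 passed the filter on low counts, among 15323 genes tested between the untreated lines and 17133 genes tested in the fit of all libraries. Poly-A RNA was sequenced from 12 libraries in 4 groups of 3. SKOV3 is a human line from an epithelial cancer of the ovary, and the study treats it as sensitive to chemotherapy. The line was left untreated (group SKOV3) or treated with paeonol (group SKOV3_PAE), a phenolic compound of peony root bark. Its derivative SKOV3/DDP resists cisplatin, and was likewise left untreated (SKOV3/DDP) or treated with paeonol (SKOV3/DDP_PAE). The labels name neither the dose nor the time of paeonol, nor whether the resistant line was kept under cisplatin, and each line is a single model of its phenotype.

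Glycolysis splits glucose into pyruvate and yields ATP and NADH without oxygen. Tumour cells often run it fast and export the pyruvate as lactate even in air, a habit known as the Warburg effect. Many of its genes are textbook targets of the hypoxia-inducible factor HIF-1 and of MYC, which bind short E-box-like motifs near their start sites.

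The libraries held between 14610008 and 18263479 counts. The 3 untreated SKOV3 libraries stood apart from the other 9. Over 10577 genes, the deviation of a library from the mean of all libraries correlated with the GC content of the gene's exons at a Spearman rho of 0.771 to 0.799 in untreated SKOV3 and of -0.463 to -0.687 in the others. The TMM factors, which scale each library for its composition, were 0.644 to 0.674 in untreated SKOV3 and 0.975 to 1.23 elsewhere, and they left the median gene at a log2 fold change of 0.41 between the untreated lines and 0.48 for PAE in SKOV3 (1.16 and 1.36 when libraries were scaled by their totals alone). With totals alone, PAE in SKOV3 called 9058 genes higher and 3834 lower, against 7292 and 5603 with TMM, and PAE in SKOV3/DDP called 2889 higher and 1913 lower, against 2014 and 2512. Of the 5 comparisons, 3 rest on these libraries (untreated SKOV3/DDP against SKOV3, PAE in SKOV3, and the difference of the PAE effect between the lines) and share them. Fold changes fitted in them are therefore given both as measured and after removal of each library's trend on GC content and gene length. PAE in SKOV3/DDP and the contrast of the lines under PAE compare none of these libraries. The fit behind both still took its filter, scaling and estimate of spread from all 12 libraries. Keratins KRT8 and KRT18 were at 287 CPM (counts scaled to the size of the library) or more in every library, and the summed leukocyte, endothelial and fibroblast markers (CPM on library totals) at 117, 12.8 and 36.7 or less, with 2 of 5, 1 of 4 and 4 of 5 genes over 1 CPM in some group. PTPRC, CDH5 and KDR were at or near 0, and so were the ovarian markers WT1 and SOX17. Other members of the lists were present. CD14 was at 62.9 to 72.5 CPM in untreated SKOV3 and 2.25 to 3.12 in untreated SKOV3/DDP. CD68 was at 45.7 to 61.3 and 83.3 to 104 CPM in those groups. PECAM1, COL1A1 and COL3A1 reached 10.5, 14.2 and 18.5 CPM in their highest libraries. The ovarian marker PAX8 was at 23.3 to 34.0 CPM in untreated SKOV3 and 3.40 to 5.57 in untreated SKOV3/DDP, and MUC16 at 11.0 CPM or less. The part of all these markers in the results was not tested. EPCAM stood at 0.426 to 1.95 CPM in untreated SKOV3 and at 271 to 313 CPM in untreated SKOV3/DDP. In the same groups KRT19 was at 6.78 to 8.78 and 1136 to 1546 CPM, and CDH1 at 3.32 to 13.1 and 331 to 585 CPM. The labels do not say whether replicates were separate cultures, so p-values measure the spread between these libraries, which may be technical, and in bulk RNA fewer expressing cells and less RNA per cell cannot be told apart.

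Together the 10 genes held 2.28% ± 0.0366 (SD, n = 3) of all counts in untreated SKOV3, with a range of 2.24% to 2.31%. The share was 1.06% ± 0.102 in SKOV3_PAE, 1.07% ± 0.124 in SKOV3/DDP and 0.723% ± 0.0713 in SKOV3/DDP_PAE. The untreated SKOV3 libraries therefore lay above the other 9, and the SKOV3/DDP_PAE libraries, with a range of 0.668% to 0.803%, below all of them. GAPDH, PKM and ENO1 made up 90.2% of these counts in untreated SKOV3 but 66.1% in untreated SKOV3/DDP, where SLC2A1 took a visible part.

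**Figure D1:**
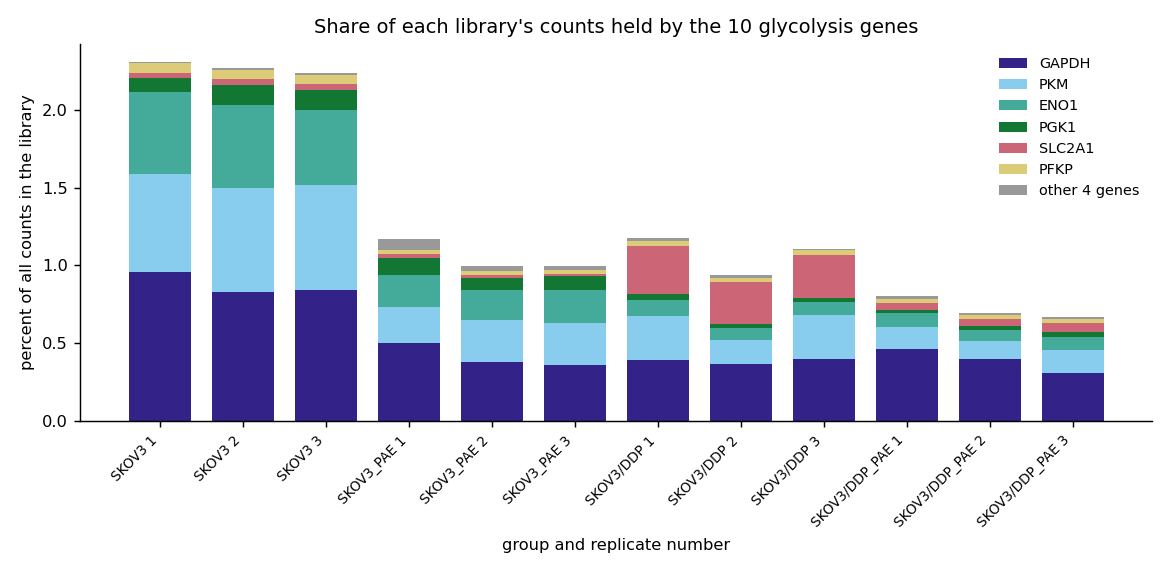
Percent of all counts in each of the 12 libraries (x axis, group and replicate number) that fell on the 10 glycolysis genes, stacked by gene, with HK2, ALDOA, LDHA and PDK1 joined as the other 4 genes. The 3 untreated SKOV3 libraries reach 2.24% to 2.31%, and the SLC2A1 segment is widest in untreated SKOV3/DDP.

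Levels between genes were compared as CPM per kilobase of the length given in the files. In untreated SKOV3 the order ran from GAPDH (7735 ± 687, SD, n = 3) through PKM (2637 ± 97.4), ENO1 (2494 ± 189), PGK1 (367 ± 72.6), PFKP (220 ± 13.5) and SLC2A1 (174 ± 9.41) to ALDOA (20.4 ± 3.93), LDHA (11.1 ± 8.73), HK2 (7.16 ± 3.07) and PDK1 (0.463 ± 0.0651). PKM and ENO1 overlapped there, as did LDHA and HK2. In untreated SKOV3/DDP, SLC2A1 moved up to the second place at 801 ± 37.0 CPM per kilobase, above PKM (589 ± 146) and ENO1 (262 ± 30.6) and below GAPDH (2121 ± 48.6), with no overlap between these neighbours. In SKOV3/DDP_PAE it was in the fourth place at 126 ± 19.8 CPM per kilobase. GAPDH was highest in each of the 4 groups and PDK1 lowest, although PDK1 and ALDOA overlapped in both PAE groups. The low values of ALDOA and LDHA are uncertain, ALDOA because it lies wholly inside a longer gene on the same strand and LDHA because its replicates disagree, as the accounts of those genes show.

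**Figure D2:**
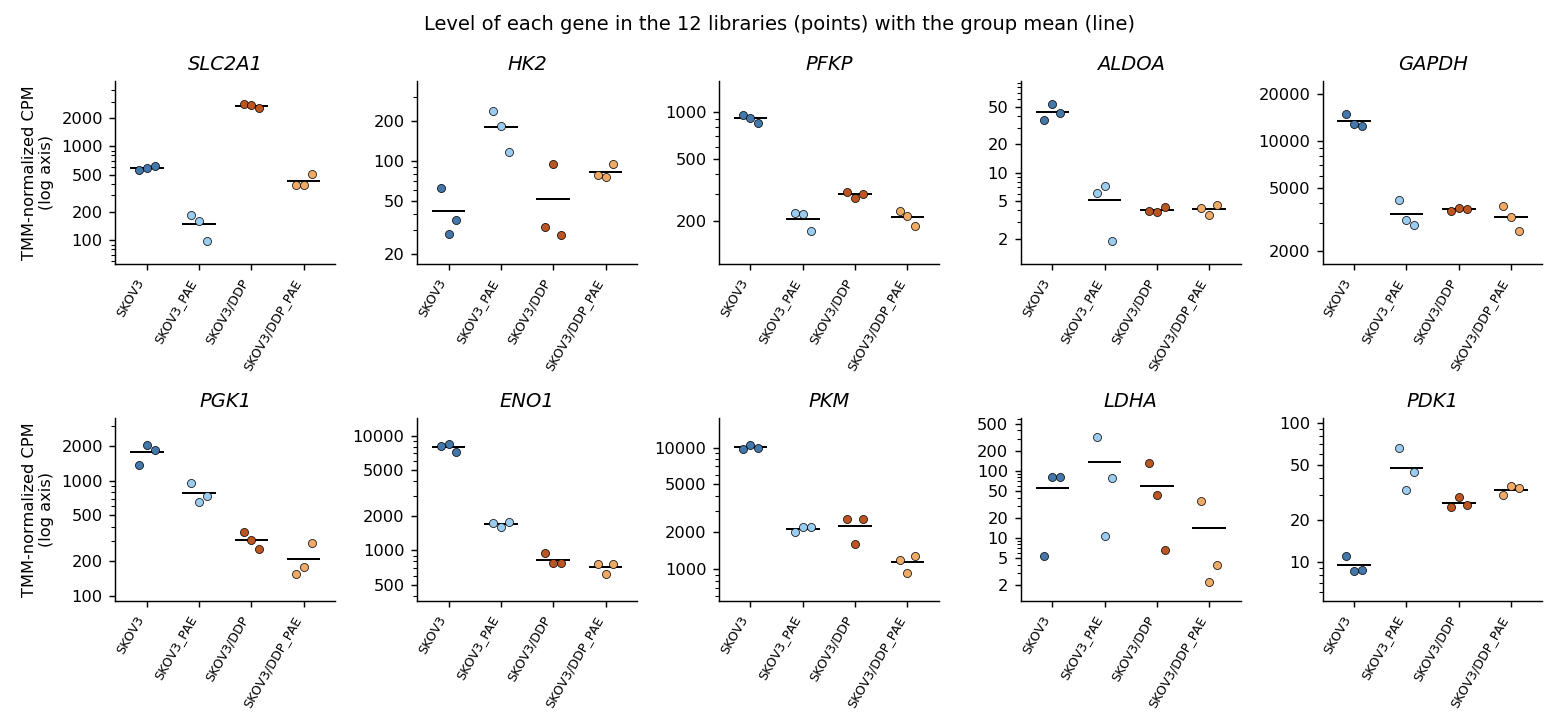
TMM-normalized CPM (log axis, 1 panel per gene, each with its own range) in the 3 libraries of each group (points) with the group mean (line). Untreated SKOV3 is highest for PFKP, ALDOA, GAPDH, PGK1, ENO1 and PKM, untreated SKOV3/DDP is highest for SLC2A1, and the LDHA points of each group spread over more than 10-fold.

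Because base composition moved with the groups, the GC content of each gene bears on its fold change. Exons of the 10 genes ranged from 40.2% GC in PDK1 to 60.8% in GAPDH, and 7 of the 10 lay above the median of 48.9% over 15683 tested genes. Genes within 1 percentage point of GAPDH had a median log2 fold change of -2.01 in untreated SKOV3/DDP against SKOV3, and GAPDH itself was at -1.93, higher than 51.7% of them. PFKP, at 58.1% GC, stood at -1.67 beside a median of -1.91 for its neighbours. Both genes thus lay near the middle of genes of like composition. PGK1, with 43.5% GC, was at -2.58 where 1214 genes of like composition had a median of 2.14, and it lay above 5.19% of them. SLC2A1 (54.4% GC) was at 2.14 beside a median of -1.23 and lay above 90.3% of its neighbours. In PAE-treated SKOV3/DDP the medians for the neighbours of the 10 genes lay between -0.22 and 0.21, so composition moved little there.

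**Figure D3:**
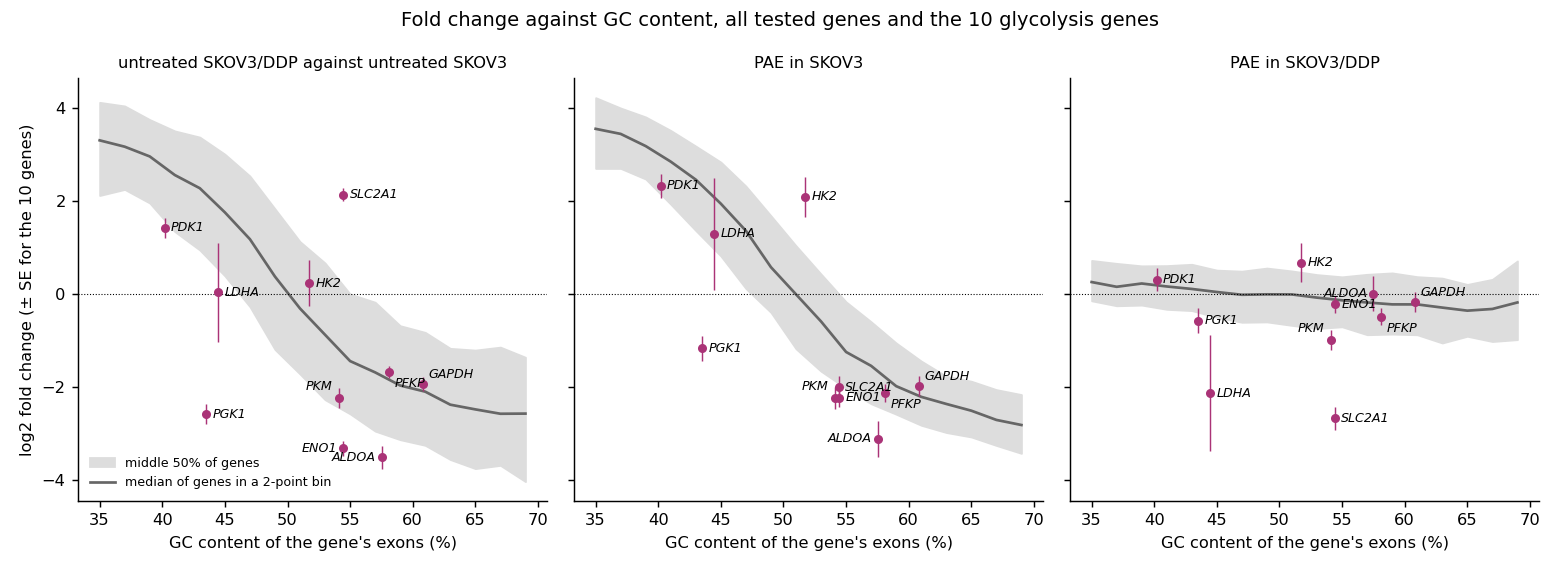
Log2 fold change (y axis) against the GC content of a gene's exons in percent (x axis) in 3 comparisons, with the median (line) and the middle 50% (band) of tested genes in bins of 2 percentage points, and the 10 glycolysis genes with their SE (points). The line falls steeply in both comparisons that use untreated SKOV3 and is nearly flat for PAE in SKOV3/DDP; GAPDH and PFKP sit near it, while SLC2A1 and PGK1 lie far from it between the untreated lines.

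Between the untreated lines, 2 of the 10 genes were higher in SKOV3/DDP and 6 were lower (edgeR, adjusted p under 0.05), where 46.1% of all tested genes were called higher and 38.5% lower. After removal of the GC and length trend, 1 was higher and 5 were lower, against 37.0% and 33.0% of all genes. SLC2A1 was higher and ALDOA, PGK1, ENO1 and PKM were lower in both fits. PFKP and GAPDH lost their call, and PDK1 changed from higher to lower. The median log2 fold change of the 10 was -1.80 as measured, beside 0.41 over all genes, and -1.53 with the trend removed, beside 0.15.

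PAE in SKOV3 was accompanied by 2 higher and 7 lower genes, where 42.6% of all tested genes were called higher and 32.7% lower. With the trend removed, HK2 alone was higher, and SLC2A1, ALDOA, PGK1, ENO1, PKM and PDK1 were lower, against 29.2% and 22.0% of all genes. Here the median of the 10 was -1.99 as measured and -0.86 with the trend removed, beside 0.48 and 0.21 over all genes.

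PAE in SKOV3/DDP touched fewer members. SLC2A1 and PKM were lower and none was higher, where 11.8% of all tested genes were called higher and 14.7% lower (15.3% and 16.4% with the trend removed, when the same 2 genes were called). At an unadjusted p under 0.05, edgeR likewise gave 0 higher members, as did the adjusted tests of DESeq2 and limma-voom, which called 3 lower. PFKP (unadjusted p of 0.0187, adjusted p of 0.0645) and PGK1 (unadjusted p of 0.0478) came closest among the 8 genes that edgeR did not call. Their log2 fold changes ran from -2.12 ± 1.25 (SE) for LDHA to 0.68 ± 0.42 for HK2, beside a median of 0 over all genes.

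Under PAE the resistant line had 1 gene higher (SLC2A1) and 5 lower (HK2, PGK1, ENO1, PKM and LDHA) than the sensitive line, where 27.5% of all tested genes were called higher and 27.1% lower. With the trend removed the count was 1 higher and 4 lower, LDHA having dropped out, against 30.0% and 28.8% of all genes. The untreated SKOV3 libraries were not among the groups compared here, but they entered the filter, the scaling and the estimate of spread of the fit.

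**Figure D4:**
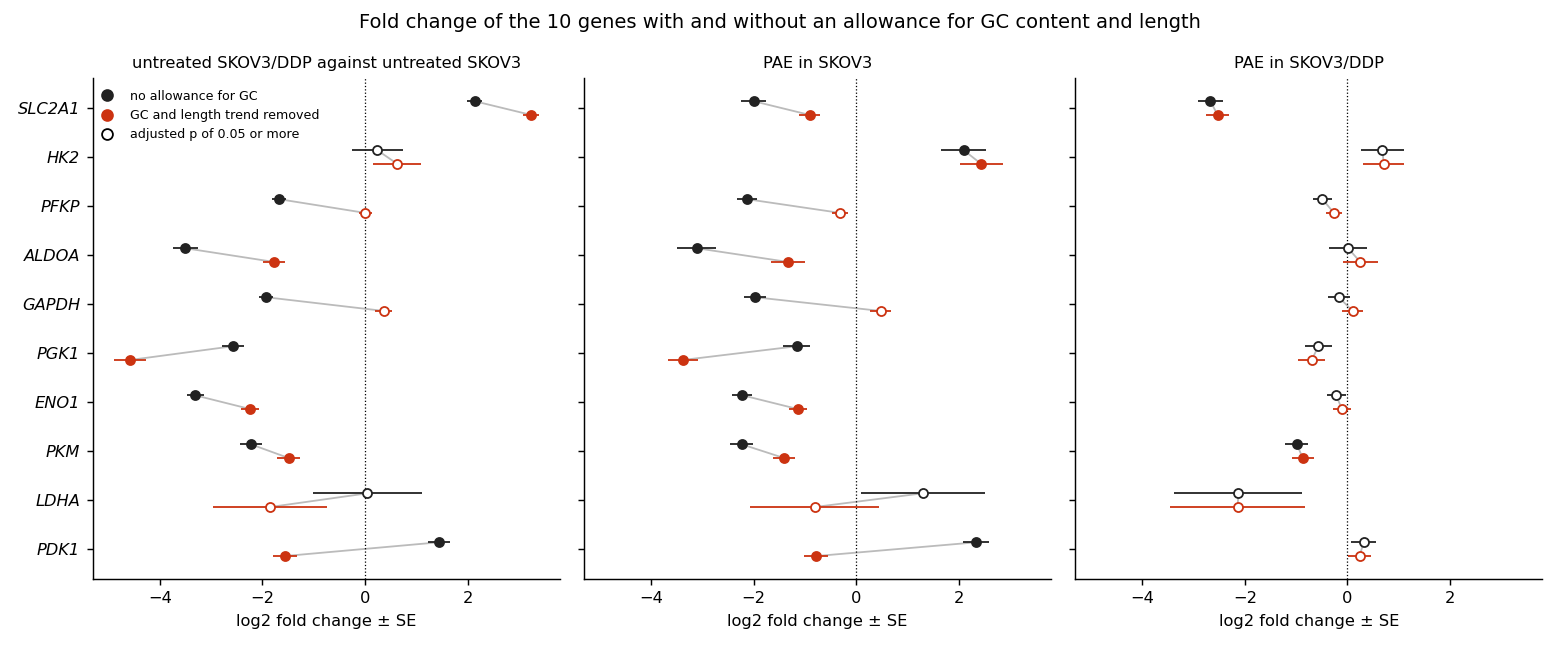
Log2 fold change ± SE of the 10 genes in 3 comparisons, without an allowance for composition (black) and with the GC and length trend removed (red), filled where the adjusted p was under 0.05. PDK1 and GAPDH cross 0 in both comparisons that use untreated SKOV3, and PFKP moves to near 0 between the untreated lines. GAPDH and PFKP lose their call in both, and the points of PAE in SKOV3/DDP hardly move.

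Promoter sequence was read for the 10 genes as the 250 bases before each start site in RefSeq (GRCh38.p14), which lists 18 starts for them. The letters ACGTG (the core bound by HIF-1), GCGTG (its variant) and CACGTG (the E-box bound by MYC) were searched on both strands, and CACGTG contains ACGTG on each strand. ACGTG occurred at 10 of the 18 starts (7 genes), GCGTG at 6 (5 genes) and CACGTG at 4 (4 genes). Among all 35116 RefSeq start sites the shares were 18.5%, 32.2% and 6.34%. The windows shown are those of LDHA and PGK1, textbook targets of HIF-1 that hold the letters, of ENO1, which was lower together with PGK1 in the resistant line, and of SLC2A1, which was higher there. Capitals mark the motifs on either strand, and SLC2A1 has none in this window.
LDHA: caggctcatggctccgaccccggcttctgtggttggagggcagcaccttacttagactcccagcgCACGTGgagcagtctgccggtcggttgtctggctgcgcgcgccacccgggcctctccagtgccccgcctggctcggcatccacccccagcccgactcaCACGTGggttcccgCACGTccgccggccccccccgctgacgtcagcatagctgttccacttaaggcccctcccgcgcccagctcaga
PGK1: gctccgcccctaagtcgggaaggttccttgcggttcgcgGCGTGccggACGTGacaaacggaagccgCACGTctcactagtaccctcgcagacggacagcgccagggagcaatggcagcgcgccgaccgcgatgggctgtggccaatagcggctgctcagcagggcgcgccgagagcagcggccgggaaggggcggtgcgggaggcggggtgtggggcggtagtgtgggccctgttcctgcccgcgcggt
ENO1: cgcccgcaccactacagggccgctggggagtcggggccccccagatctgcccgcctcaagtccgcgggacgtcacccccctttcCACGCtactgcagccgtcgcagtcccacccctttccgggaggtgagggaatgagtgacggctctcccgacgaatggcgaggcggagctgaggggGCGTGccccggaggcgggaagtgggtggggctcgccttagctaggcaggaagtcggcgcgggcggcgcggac
SLC2A1: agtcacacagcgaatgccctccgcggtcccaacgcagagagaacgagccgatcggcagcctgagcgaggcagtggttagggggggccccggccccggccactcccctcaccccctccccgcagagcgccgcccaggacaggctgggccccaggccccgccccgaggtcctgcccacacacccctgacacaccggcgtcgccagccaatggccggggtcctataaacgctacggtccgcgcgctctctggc
The windows are chr11:18394313-18394562 (plus strand), chrX:78103998-78104247 (plus), chr1:8878687-8878936 (minus) and chr1:42958869-42959118 (minus). PGK1 and ENO1 differ in what they hold, with 2 copies of ACGTG and 1 of GCGTG in the first and none and 2 in the second. A match of these letters is a description of the sequence and says nothing on whether a factor was bound.

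SLC2A1 (gene 6513, chr1:42925353-42958868 on GRCh38, minus strand) encodes GLUT1, the carrier that brings glucose into most cells. It stood at 558, 591 and 622 CPM in untreated SKOV3 and at 2802, 2761 and 2568 CPM in untreated SKOV3/DDP. PAE took it to 184, 159 and 98.1 CPM in SKOV3 and to 385, 389 and 503 CPM in SKOV3/DDP. The groups did not overlap in any of these pairs. SKOV3/DDP_PAE lay below untreated SKOV3 as measured, but above it without overlap when the trend was removed (472 to 634 against 314 to 360 CPM). Between the untreated lines the log2 fold change was 2.14 ± 0.14 (SE, adjusted p = 2.62e-06), or 3.24 ± 0.15 with the trend removed. PAE lowered SLC2A1 by a log2 fold change of -2.67 ± 0.24 in SKOV3/DDP (adjusted p = 2.64e-05; -2.53 with the trend removed) and of -2.002 ± 0.236 in SKOV3 (adjusted p = 1.60e-06). The latter was -0.91 ± 0.21 with the trend removed. Whether the fall was deeper in the resistant line depended on composition, since the difference was -0.67 ± 0.32 as measured (adjusted p = 0.0839) and -1.62 ± 0.30 with the trend removed (adjusted p = 0.000662). With PAE in both, the resistant line remained higher by 1.53 ± 0.23 (adjusted p = 5.94e-05).

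HK2 (gene 3099, chr2:74834126-74893359, plus strand), the inducible hexokinase that traps glucose as glucose 6-phosphate, behaved otherwise. Its level was 62.3, 28.0 and 35.7 CPM in untreated SKOV3 and 239, 184 and 116 CPM in SKOV3_PAE. In SKOV3/DDP it was 31.9, 94.9 and 27.8 CPM untreated and 77.6, 75.3 and 95.3 CPM with PAE. Only the SKOV3 pair was free of overlap, and replicate 2 of untreated SKOV3/DDP lay about as high as the treated libraries of that line. HK2 rose with PAE in SKOV3 by a log2 fold change of 2.10 ± 0.44 (adjusted p = 0.000441), and by 2.44 ± 0.42 with the trend removed. In SKOV3/DDP the change was 0.68 ± 0.42 (adjusted p = 0.247), and 1.47 and past the threshold without replicate 2 of the untreated group. The difference between the lines, -1.41 ± 0.59 (-1.73 with the trend removed), passed narrowly (adjusted p = 0.0495) and no longer passed when 1 of 8 libraries was left out, with -0.63 without replicate 2 of untreated SKOV3/DDP. Under PAE HK2 was lower in SKOV3/DDP by a log2 fold change of -1.12 ± 0.42 (adjusted p = 0.0353), a call that was lost on leaving out any of 5 of the 6 libraries, replicate 3 of SKOV3_PAE being the exception.

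PFKP (gene 5214, chr10:3067475-3136805, plus strand) is the platelet form of phosphofructokinase, the committing step of the pathway. It measured 959, 913 and 848 CPM in untreated SKOV3 and between 174 and 307 CPM in the other 9 libraries. The log2 fold change was -1.67 ± 0.14 between the untreated lines (adjusted p = 8.01e-06) and -2.13 ± 0.19 for PAE in SKOV3 (adjusted p = 1.03e-07). These were, with the trend removed, 0.01 ± 0.13 and -0.31 ± 0.16, with adjusted p of 0.953 and 0.112. Under PAE the lines differed by 0.03 ± 0.18. The 3.18-fold gap between the untreated lines was close to that of genes with the same GC content.

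ALDOA (gene 226, chr16:30064279-30070420, plus strand) is the aldolase that cleaves fructose 1,6-bisphosphate. Its counts were low for a housekeeping enzyme, from 36 to 619 a library. It measured 35.9, 52.7 and 43.1 CPM in untreated SKOV3 and between 1.89 and 7.21 CPM in the other 9 libraries. The log2 fold change was -3.50 ± 0.24 between the untreated lines (adjusted p = 3.51e-06) and -3.11 ± 0.38 for PAE in SKOV3 (adjusted p = 2.53e-06), and with the trend removed it was -1.77 ± 0.21 and -1.33 ± 0.33, both still called. ALDOA lies inside LOC112694756 (chr16:30053090-30070420, same strand), itself counted at a mean of 7.25 CPM in untreated SKOV3 and 0.324 CPM in untreated SKOV3/DDP. Reads from exons that both share could not be told apart here, so the level of ALDOA is uncertain.

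GAPDH (gene 2597, chr12:6534517-6538371, plus strand), the dehydrogenase of the pathway and a common reference gene, was at 14748, 12881 and 12538 CPM in untreated SKOV3. SKOV3_PAE had 4224, 3121 and 2901 CPM, SKOV3/DDP 3584, 3752 and 3677 CPM, and SKOV3/DDP_PAE 3873, 3275 and 2674 CPM. The last 3 groups overlapped one another and lay far below the first. The log2 fold change was -1.93 ± 0.14 between the untreated lines (adjusted p = 4.72e-06) and -1.97 ± 0.22 for PAE in SKOV3 (adjusted p = 8.46e-07). Removal of the trend turned these to 0.37 ± 0.17 and 0.48 ± 0.21, neither of which passed (adjusted p of 0.0741 and 0.0676). In SKOV3/DDP, PAE changed GAPDH by -0.17 ± 0.21 (adjusted p = 0.605).

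PGK1 (gene 5230, chrX:78104248-78129295, plus strand), which makes the first ATP of the pathway, differs from GAPDH in being poor in GC. It measured 1377, 2056 and 1858 CPM in untreated SKOV3 and 362, 304 and 258 CPM in untreated SKOV3/DDP. The PAE groups had 965, 660 and 742 CPM in SKOV3 and 155, 179 and 291 CPM in SKOV3/DDP. The lines did not overlap under either condition. The resistant line was lower by a log2 fold change of -2.58 ± 0.22 untreated (adjusted p = 8.67e-06) and of -1.92 ± 0.27 under PAE (adjusted p = 2.85e-05). Removal of the trend took the first to -4.58 ± 0.32 and left the second at -1.97 ± 0.28. PAE in SKOV3 gave -1.16 ± 0.26 (adjusted p = 0.000973), or -3.38 ± 0.29 with the trend removed and -0.28 with libraries scaled by totals alone, when it no longer passed. In SKOV3/DDP the change was -0.57 ± 0.26 (adjusted p = 0.126), and -0.84 and past the threshold without replicate 3 of SKOV3/DDP_PAE.

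ENO1 (gene 2023, chr1:8861000-8878686, minus strand) is the enolase that forms phosphoenolpyruvate. Its level was 8068, 8368 and 7217 CPM in untreated SKOV3 and 939, 772 and 771 CPM in untreated SKOV3/DDP. SKOV3_PAE had 1723, 1592 and 1761 CPM and SKOV3/DDP_PAE 761, 618 and 757 CPM. SKOV3 libraries exceeded SKOV3/DDP libraries throughout, treated or not. The log2 fold change between the lines was -3.31 ± 0.17 untreated (adjusted p = 9.74e-07; -2.24 with the trend removed) and -1.25 ± 0.19 under PAE (adjusted p = 5.98e-05). PAE lowered ENO1 in SKOV3 by -2.22 ± 0.20 (adjusted p = 8.50e-08; -1.14 with the trend removed). In SKOV3/DDP it was at -0.22 ± 0.19 (adjusted p = 0.421).

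PKM (gene 5315, chr15:72199029-72231389, minus strand) encodes pyruvate kinase, whose M2 splice form is typical of tumours; counts per gene do not separate the splice forms. PKM measured 9680, 10421 and 10021 CPM in untreated SKOV3, 2000, 2200 and 2207 CPM in SKOV3_PAE, 2558, 1600 and 2568 CPM in SKOV3/DDP, and 1188, 920 and 1289 CPM in SKOV3/DDP_PAE. Each treated group lay below its untreated line without overlap. PAE gave a log2 fold change of -2.23 ± 0.23 in SKOV3 (adjusted p = 3.75e-07; -1.41 with the trend removed) and of -0.99 ± 0.22 in SKOV3/DDP (adjusted p = 0.00539; -0.87 with the trend removed). Along with SLC2A1, PKM was thus lower with PAE in both lines in both fits. Resistant cells were lower by -2.23 ± 0.21 untreated (adjusted p = 1.71e-05; -1.49 with the trend removed) and by -0.92 ± 0.22 under PAE (adjusted p = 0.00269).

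LDHA (gene 3939, chr11:18394563-18408425, plus strand), the lactate dehydrogenase subunit that turns pyruvate into lactate, gave no stable level. It measured 5.32, 82.1 and 79.8 CPM in untreated SKOV3, 322, 10.7 and 78.8 CPM in SKOV3_PAE, 131, 44.3 and 6.55 CPM in SKOV3/DDP, and 35.5, 2.21 and 3.91 CPM in SKOV3/DDP_PAE. Every group spanned more than 10-fold, and all overlapped. These were not values at the limit of counting, since the libraries held 47 to 5543 counts of LDHA. No standard error was under 1.06 on the log2 scale. The only call, -3.30 ± 1.304 between the lines under PAE (adjusted p = 0.0432), was lost with the trend removed (adjusted p = 0.0538) and without replicate 1 of SKOV3_PAE (-1.70) or replicates 2 or 3 of SKOV3/DDP_PAE. Its pseudogenes held 3.80% as many counts as the gene, the largest such share among the 10, where GAPDH had 45 named pseudogenes with 0.0295%.

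PDK1 (gene 5163, chr2:172555373-172672698, plus strand) is a kinase that switches off pyruvate dehydrogenase and so holds pyruvate back from the mitochondrion. It is the most AT-rich of the 10. Its level was 10.9, 8.61 and 8.64 CPM in untreated SKOV3, 65.6, 32.9 and 43.99 CPM in SKOV3_PAE, 24.7, 29.3 and 25.4 CPM in SKOV3/DDP, and 30.3, 34.9 and 33.9 CPM in SKOV3/DDP_PAE. As measured, untreated SKOV3 was the lowest group. The log2 fold change was 1.44 ± 0.21 between the untreated lines (adjusted p = 0.000262) and 2.34 ± 0.26 for PAE in SKOV3 (adjusted p = 7.47e-07). With the trend removed both turned, to -1.56 ± 0.23 (adjusted p = 0.000368) and -0.78 ± 0.24 (adjusted p = 0.0140). With medians of GC bins removed instead, the value for PAE in SKOV3 was -0.52 and did not pass (edgeR, adjusted p = 0.0550). The direction of PDK1 in every comparison with untreated SKOV3 therefore rests on the allowance for composition. In SKOV3/DDP, PAE gave 0.32 ± 0.24 (adjusted p = 0.356).

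The effect of PAE differed between the lines for 7 of the 10 genes as measured (effect in SKOV3/DDP minus effect in SKOV3). It was higher for PFKP, ALDOA, GAPDH, ENO1 and PKM, between 1.25 and 3.12, and lower for HK2 and PDK1, where 25.5% of all tested genes were called higher and 37.4% lower. With the trend removed ALDOA, PGK1, ENO1 and PDK1 were higher and SLC2A1 and HK2 lower, against 19.3% and 23.2% of all genes. ALDOA, ENO1 and HK2 thus had the same sign and a call in both fits. The call of HK2 was narrow as measured (edgeR, adjusted p = 0.0495) and was lost on leaving out some single libraries, and the level of ALDOA is uncertain. For PGK1 the difference was 0.60 ± 0.37 as measured (adjusted p = 0.176) and 2.68 ± 0.38 with the trend removed (adjusted p = 0.000104).

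Isozymes at the same steps did not all follow the members. SLC2A3, the high-affinity neuronal glucose transporter GLUT3, had 0 counts in untreated SKOV3 and 11916 in untreated SKOV3/DDP, at 201, 379 and 149 CPM. Against a floor of 3 counts over the group it was at least 4472-fold higher in the resistant line. SLC2A3 is nearly identical to its neighbour SLC2A14, and reads may be split between them. PAE left it at 204, 202 and 268 CPM in SKOV3/DDP, a log2 fold change of -0.11 ± 0.32 (adjusted p = 0.848), while SLC2A1 fell. The constitutive hexokinase HK1 fell with PAE in SKOV3 as measured (-0.72 ± 0.22, adjusted p = 0.00816) and stood at 0.05 with the trend removed, and HKDC1 was higher in untreated SKOV3/DDP by 4.97 ± 0.82 (adjusted p = 0.000468; 5.47 with the trend removed). Of the transporters and hexokinases outside the 10, 3 of 9 tested were higher and 5 lower between the untreated lines (2 and 6 with the trend removed), and 1 of 11 was higher and 1 lower with PAE in SKOV3/DDP. All tested genes had shares of 46.1% and 38.5% (37.0% and 33.0% with the trend removed) and of 11.8% and 14.7% in these comparisons.

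**Figure D5:**
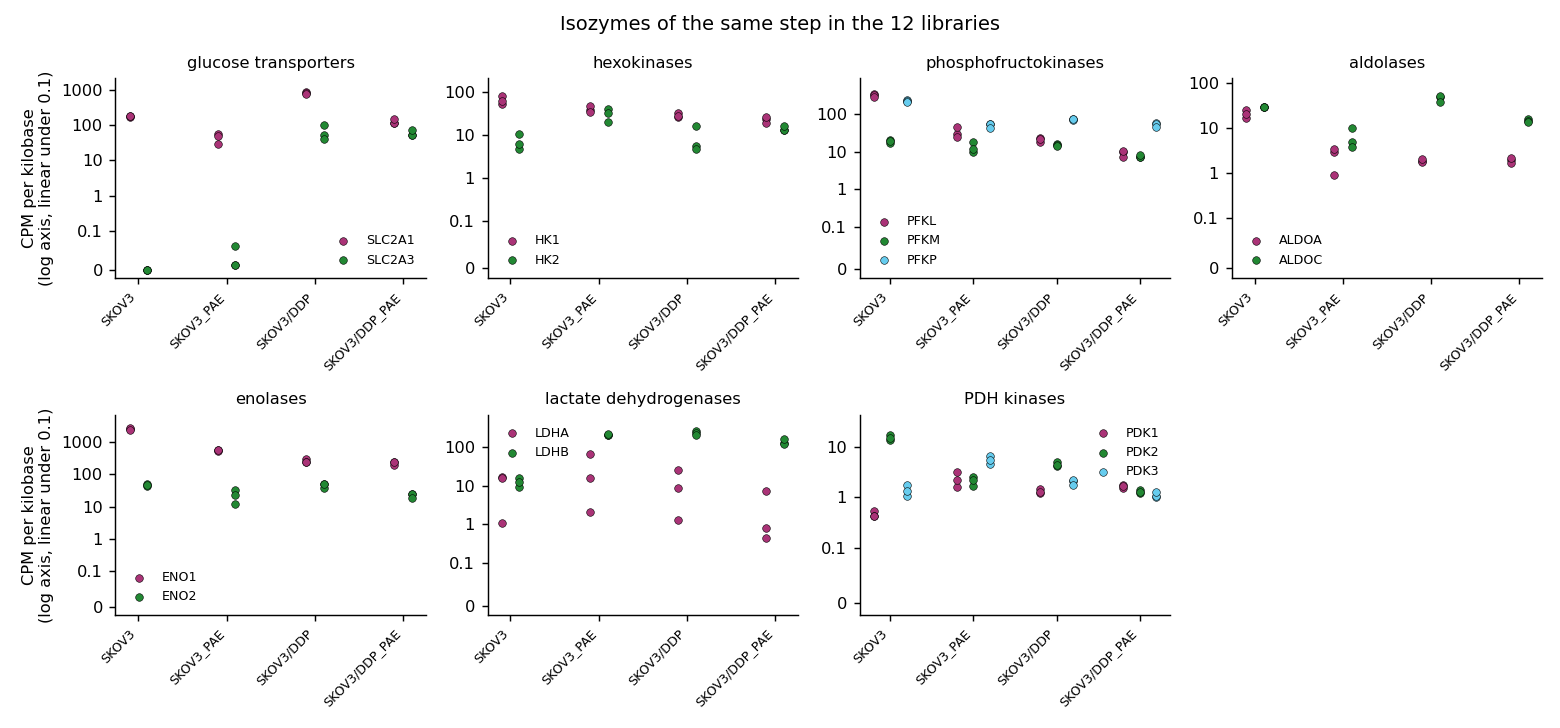
CPM per kilobase (log axis, linear below 0.1) of isozymes that serve the same step, 3 libraries per group, with a colour for each gene. SLC2A3 is at or near 0 in both SKOV3 groups, LDHB exceeds LDHA in every library outside untreated SKOV3, and PDK1 is the lowest of its 3 kinases in untreated SKOV3.

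LDHB, the heart-type lactate dehydrogenase subunit, was steady where LDHA was not. It measured 18.5, 29.996 and 23.99 CPM in untreated SKOV3 and 521, 438 and 399 CPM in untreated SKOV3/DDP. The log2 fold change was 4.16 ± 0.24 (adjusted p = 1.54e-06), or 2.61 with the trend removed. PAE raised it in SKOV3 by 4.09 ± 0.24 (adjusted p = 1.11e-08; 2.22 with the trend removed) and lowered it in SKOV3/DDP by -0.77 ± 0.21 (adjusted p = 0.0160). The lactate exporter SLC16A3 ran the other way, from 1993 ± 293 CPM (SD, n = 3) in untreated SKOV3 to 169 ± 22.9 in untreated SKOV3/DDP, with a log2 fold change of -3.62 ± 0.19 (adjusted p = 1.19e-06; -1.94 with the trend removed). BSG, the chaperone of that exporter, fell with PAE in SKOV3 by -2.87 ± 0.24 (adjusted p = 5.47e-08), and was at -0.41 with the trend removed. Of 6 lactate genes tested between the untreated lines, 3 were higher and 3 lower (4 and 2 with the trend removed), and with PAE in SKOV3/DDP 1 of 7 was higher and 2 lower. The shares of all tested genes were 46.1% and 38.5% (37.0% and 33.0% with the trend removed), and 11.8% and 14.7% with PAE in SKOV3/DDP.

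Of 13 other enzymes and isozymes of glycolysis tested, 2 were called higher and 8 lower between the untreated lines, 2 and 8 for PAE in SKOV3, and 1 and 7 for PAE in SKOV3/DDP. The counts with the trend removed were 4 and 5, 5 and 4, and 1 and 7. The shares of all tested genes were 46.1% and 38.5%, 42.6% and 32.7%, and 11.8% and 14.7% as measured. With the trend removed the shares were 37.0% and 33.0%, 29.2% and 22.0%, and 15.3% and 16.4%. TPI1, the triose phosphate isomerase, went from 4677, 5787 and 4691 CPM in untreated SKOV3 to 351, 251 and 304 CPM in untreated SKOV3/DDP, a log2 fold change of -4.13 ± 0.20 (adjusted p = 9.22e-07; -2.02 with the trend removed). PFKL, the liver phosphofructokinase, was lower by -3.98 ± 0.18 (adjusted p = 8.20e-07; -2.26 with the trend removed). In SKOV3/DDP, PAE was accompanied by lower ALDOC (-1.64 ± 0.29, adjusted p = 0.00111) and PGM1 (-1.20 ± 0.27, adjusted p = 0.00499) and by higher BPGM (1.83 ± 0.28, adjusted p = 0.000476), the mutase that makes 2,3-bisphosphoglycerate. The other 5 lower genes were GPI, PFKM, PFKL, ENO2 and ENO3.

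Enzymes that set fructose 2,6-bisphosphate, the activator of phosphofructokinase, gave 2 higher and 2 lower of 5 between the untreated lines, and 3 and 1 with the trend removed. All tested genes had shares of 46.1% and 38.5% there, and of 37.0% and 33.0% with the trend removed. TIGAR, a phosphatase that removes fructose 2,6-bisphosphate, was higher in untreated SKOV3/DDP by 3.09 ± 0.35 (adjusted p = 4.85e-05; 1.86 with the trend removed), and rose with PAE in SKOV3 (2.82 ± 0.31, adjusted p = 7.76e-07; 1.39 with the trend removed) and in SKOV3/DDP (1.20 ± 0.28, adjusted p = 0.00700). PFKFB3 was lower in the untreated resistant line by -1.96 ± 0.22 (adjusted p = 5.19e-05; -0.66 with the trend removed).

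At the mitochondrial gate, 8 of 13 genes tested were higher and 3 lower in untreated SKOV3/DDP, but 3 and 5 with the trend removed. The shares of all tested genes were 46.1% and 38.5%, and 37.0% and 33.0% with the trend removed. PDP1, the phosphatase that opposes PDK1, was higher in untreated SKOV3/DDP by 5.71 ± 0.26 (adjusted p = 8.27e-07; 3.55 with the trend removed). MPC2, a subunit of the pyruvate carrier, was lower by -3.47 ± 0.21 (adjusted p = 1.87e-06; -4.20 with the trend removed). PDK4 had 0 counts in untreated SKOV3 and 426 in untreated SKOV3/DDP, at least 160-fold more against a floor of 3 counts over the group. PDK2 fell with PAE in both lines, by -2.85 ± 0.23 in SKOV3 (adjusted p = 3.56e-08; -1.06 with the trend removed) and -1.77 ± 0.22 in SKOV3/DDP (adjusted p = 0.000132).

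Of the pentose phosphate genes, which draw on glucose 6-phosphate, 3 of 9 were called higher and 4 lower between the untreated lines (2 and 3 with the trend removed). Between those lines 46.1% of all tested genes were called higher and 38.5% lower (37.0% and 33.0% with the trend removed). PGD rose with PAE in SKOV3/DDP by 1.41 ± 0.21 (adjusted p = 0.000457), and was higher in SKOV3/DDP than in SKOV3 under PAE by 2.44 ± 0.22 (adjusted p = 3.32e-07). Gluconeogenesis had 2 genes tested between the untreated lines, G6PC3 and PCK2, both lower as measured, and G6PC3 alone with the trend removed.

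HIF1A, the oxygen-regulated subunit of HIF-1, measured 43.0, 6.90 and 23.3 CPM in untreated SKOV3, 407, 411 and 387 CPM in SKOV3_PAE, 51.6, 53.4 and 48.8 CPM in SKOV3/DDP, and 40.1, 42.1 and 84.1 CPM in SKOV3/DDP_PAE. As measured, the SKOV3_PAE libraries lay far above all others. With the trend removed they were at 204 to 280 CPM, against 39.6 to 173 CPM in untreated SKOV3. PAE in SKOV3 gave a log2 fold change of 4.04 ± 0.49 (adjusted p = 2.28e-06), or 1.14 with the trend removed (adjusted p = 0.0209), and in SKOV3/DDP 0.11 ± 0.44 (adjusted p = 0.896). Of 8 HIF subunits and regulators tested, 3 were higher and 3 lower between the untreated lines (0 and 4 with the trend removed). With PAE in SKOV3, 6 of them were higher and 1 lower (3 and 2 with the trend removed). Of 17 hypoxia-inducible genes outside glycolysis, 7 were higher and 6 lower between the untreated lines (3 and 5 with the trend removed). For PAE in SKOV3, 9 were higher and 2 lower (5 and 1 with the trend removed). Among all tested genes, 46.1% were called higher and 38.5% lower between the untreated lines (37.0% and 33.0% with the trend removed). PAE in SKOV3 had shares of 42.6% and 32.7% (29.2% and 22.0% with the trend removed). Between the untreated lines CA12 was higher by 6.75 ± 0.41 (adjusted p = 1.84e-06; 6.48 with the trend removed), while PLOD2 and LOX, which modify collagen, were lower by -8.09 ± 0.71 and -7.28 ± 0.42 (adjusted p of 1.10e-05 and 1.57e-06; -11.16 and -9.72 with the trend removed). PLOD2 and LOX were near 0 in untreated SKOV3/DDP, at means of 0.0368 and 0.0810 CPM per kilobase, so the size of their differences is uncertain.

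MYC was at 57.3 ± 13.5 CPM (SD, n = 3) in untreated SKOV3, 70.9 ± 35.7 in SKOV3_PAE, 28.6 ± 8.88 in SKOV3/DDP and 24.4 ± 4.42 in SKOV3/DDP_PAE. The untreated lines differed by a log2 fold change of -1.06 ± 0.29 (adjusted p = 0.00814), and by 0.38 with the trend removed (adjusted p = 0.275). PAE gave 0.31 ± 0.34 in SKOV3 and -0.23 ± 0.34 in SKOV3/DDP (adjusted p of 0.421 and 0.657). With the trend removed, MYC was called higher with PAE in SKOV3, at 1.64 ± 0.35 (adjusted p = 0.00161), and not in SKOV3/DDP (-0.08 ± 0.35). Of the MYC family and its partners, 1 of 9 was higher and 3 lower between the untreated lines (4 and 2 with the trend removed). There 46.1% of all tested genes were called higher and 38.5% lower (37.0% and 33.0% with the trend removed). NEK6, the kinase at the centre of the study, was at 17.8 ± 0.943 CPM in untreated SKOV3, 4.60 ± 1.35 in SKOV3_PAE, 140 ± 16.8 in SKOV3/DDP and 40.0 ± 7.91 in SKOV3/DDP_PAE. With the trend removed NEK6 was at 11.1 ± 0.779, 5.66 ± 1.54, 161 ± 20.7 and 50.3 ± 8.77 CPM in the same groups. SLC2A1 had the same order of group means as NEK6 with the trend removed, while as measured its values in SKOV3 and SKOV3/DDP_PAE changed places.

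After removal of the trend, PGK1, ENO1, PKM and PDK1 had like patterns over the 12 libraries (Pearson r from 0.79 to 0.97 between them), whereas SLC2A1 and HK2 did not join them (r of -0.23 or less, save for -0.17 between HK2 and PDK1). ALDOA was close to the first group, with r of 0.84 to PGK1, 0.81 to PDK1, 0.76 to ENO1 and 0.73 to PKM. With that group PFKP and LDHA had r of 0.25 to 0.62, and GAPDH of -0.66 to -0.41. These coefficients are descriptions over 4 groups of 3 libraries that share their scaling. As measured, PDK1 was lowest in untreated SKOV3, where PGK1, ENO1 and PKM were highest. The likeness of PDK1 to them therefore rests on the allowance for composition, and no coefficient was computed without it. Among 9641 protein-coding genes with a mean of at least 10 CPM, those most like SLC2A1 were INF2 and RAP1GAP (r = 0.98 each), those most like HK2 were TARS1 (0.95) and NFE2L2 (0.94), those most like PGK1 were HDAC3 and AGO2 (0.99 each), and those most like ENO1 were TMEM231 and CHRNA5 (0.99 each). For PKM they were KIF1C and TMEM62 (0.99 each), for PDK1 RBBP6 and MCRIP2 (0.97 each), for ALDOA SEC14L2 and SLC25A26 (0.95 each), for PFKP TUBB3 (0.89) and ZNF444 (0.87), for GAPDH ID2 (0.88) and PYGO2 (0.86), and for LDHA PSME2 (0.79) and SRSF3 (0.78). The low values for LDHA go with its spread between replicates.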

How the data were processed

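Counts per gene from 12 poly-A libraries were deposited by the authors, and the submitters' notes name HISAT2 2.0.5, StringTie 1.3.3b, DESeq2 and edgeR without their roles. Strand handling is not given in the sources used here. Samples were grouped by label. The 869 unnamed loci (0.126% to 0.678% of counts) were dropped. Counts were tested with edgeR 4.0.16 (quasi-likelihood, TMM, Benjamini-Hochberg over all tested genes, threshold 0.05), with 6 libraries for the untreated lines and 12 otherwise. Printed CPM are scaled over 12 libraries. The GC and length trend was fitted per library with splines on GENCODE values, known for 94.0% and 91.5% of genes. Scripts were tested on simulated counts. The members, gene lists and tests were chosen with earlier results of these data known. All members are named, with at most 2 genes per list and direction (called, at least 10 CPM, groups not overlapping, largest change), and the 2 genes of highest correlation. PDK4, the enzymes counted by name, and SLC2A3 under PAE were chosen after their values were seen. Alternatives used DESeq2 1.42.0, limma 3.58.1, other scalings, filters and left-out libraries.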

Additional observations from a re-analysis of the deposited data

Results flagged for a closer look

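The effect of PAE differed between the lines for 7 of the 10 genes, by the interaction term of the edgeR fit of 12 libraries (effect in SKOV3/DDP minus effect in SKOV3, log2). In this contrast 25.5% of all tested genes were called higher and 37.4% lower (19.3% and 23.2% with the GC and length trend removed). The difference was 3.12 for ALDOA, 2.003 for ENO1, 1.81 for GAPDH, 1.64 for PFKP and 1.25 for PKM, and -1.41 for HK2 and -2.02 for PDK1. With the GC and length trend removed, the values were 1.58 for ALDOA, 1.04 for ENO1 and -1.73 for HK2, all past the threshold with the same sign. As measured HK2 passed narrowly (adjusted p = 0.0495), and the level of ALDOA is uncertain. PFKP (0.05), GAPDH (-0.38) and PKM (0.54) no longer passed, and PDK1 passed with the opposite sign (1.02). With medians of GC bins removed instead, PDK1 was at 0.73 and did not pass (edgeR, adjusted p = 0.0625).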

How the results depend on the processing

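Removal of the GC and length trend changed the most. Under the spline trend, GC bin medians, 1 transcript per gene and the replicate block with the trend, in that order, GAPDH turned to 0.37, 0.28, 0.24 and 0.38 between the untreated lines, to 0.48, 0.38, 0.27 and 0.46 for PAE in SKOV3, and to -0.38, -0.42, -0.21 and -0.37 for the difference of the PAE effect. PDK1 turned to -1.56, -1.33, -1.59 and -1.55, to -0.78, -0.52, -0.91 and -0.78, and to 1.02, 0.73, 1.11 and 1.00. With bins PDK1 did not pass for PAE in SKOV3 (edgeR, adjusted p = 0.0550) or for the difference (adjusted p = 0.0625). PFKP turned to 0.0094, 0.2827 and 0.0097 between the untreated lines (spline, bins, block with the trend), and with bins to 0.0306 for PAE in SKOV3 and -0.31 for the difference. PKM turned to -0.37 for the difference with 1 transcript per gene. The 2 higher genes became 1 between the untreated lines and for PAE in SKOV3 under those 4 settings, and the 7 lower genes 4 for PAE in SKOV3 with 1 transcript per gene. For the difference, 5 higher became 3 (bins) and 2 (1 transcript), and 2 lower became 1 (1 transcript, DESeq2, limma-voom, replicate block) and 4 (library totals alone). For PAE in SKOV3/DDP, 0 higher became 1 without the filter on low counts, and 2 lower became 1 at an absolute log2 fold change over 1. Without mitochondrial genes the share in untreated SKOV3 was 2.31%. The cause was not tested.

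Leaving out 1 library gave 2 to 2 higher and 6 to 6 lower between the untreated lines, 2 to 2 and 7 to 7 for PAE in SKOV3, 0 to 1 and 2 to 3 for PAE in SKOV3/DDP, 5 to 5 and 1 to 3 for the difference, and 1 to 1 and 3 to 6 between the lines under PAE. Same-numbered libraries correlated at -0.319 to 0.186 in their deviations. Libraries of different numbers were not correlated for comparison, so these values cannot tell whether same-numbered samples share an origin. With the replicate block, the HK2 difference was -1.26 (edgeR, adjusted p = 0.0814) and HK2 between the lines under PAE -1.03 (adjusted p = 0.0509), and the other 48 of 50 member results kept their side. Over all genes, PAE in SKOV3 called 7292 higher and 5603 lower, but 4572 and 3458 with the trend removed, and the difference called 6404 lower, but 3641. Counts of LDHA and ALDOA limit those genes most.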
